A study of Rattus norvegicus with 23 samples.

Results

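Of the series' 23 arrays, 12 carry the RNA of peripheral blood mononuclear cells (PBMCs) from weanling rats whose dams had free access to chow throughout lactation. The members were chosen by the maternal group in the labels alone and comprise 6 males (male 1 to male 6) and 6 females (female 1 to female 6), each a Wistar pup aged 21 days whose trunk blood was taken while it fed freely. The remaining arrays, which belong to pups of dams restricted by 20%, are in no group compared here. Each pup has its own 2-colour Agilent whole-genome array, with its RNA in the red channel (Cy5) and an equimolar pool of the RNA of all animals, restricted ones included, in the green channel (Cy3). The labels name 11 control dams, fewer than the 12 pups, so some pups must share a dam. No pup is tied to a dam, so litter mates cannot be identified. P-values below rest on the spread between these pups, treat them as independent and take no account of litters.

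PBMCs are the nucleated blood cells with a round nucleus, mostly T and B lymphocytes, natural killer (NK) cells and monocytes, which float above red cells and granulocytes on a density gradient. Weanling rats still make red cells at a high rate, so that young red cells with residual RNA are plentiful in their blood, and platelets, which carry megakaryocyte RNA, are light enough to travel with the mononuclear fraction. In bulk RNA such as this, fewer cells of a type and less RNA per cell cannot be told apart.

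Level and spread were read from each array. The level of a probe is its net Cy5 intensity (mean spot intensity minus local background) and its percentile rank among the 41012 probes of the same array, where 100 is the brightest. The spread of a probe is the standard deviation (SD) over the 12 pups of the log2 ratio of pup to pool. The level of a probe also depends on how well its sequence binds and labels: among 1852 genes with more than 1 probe above background on all 12 arrays, the brightest and dimmest probes of a gene differed by a median of 3.41-fold. The extreme cases were Rpl28, whose probes had median net Cy5 intensities of 39189 and 52.7, Tpm3 (29571 and 55.2) and Hnrnpab (23940 and 69.7). Ranks below therefore describe probes within an array and set no order of transcript abundance between genes.

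Between 20603 (male 4) and 24076 (male 1) probes per array were well above background, with a median of 22502. The median net Cy5 intensity was 29.0 to 36.8, and the number of arrays limits the precision. Probe ranks of pairs of pups correlated with a Spearman rho of 0.920 to 0.954 over 66 pairs, a correlation across probes, which are not independent replicates. On all 12 arrays 18850 probes (46.0%) were above background, on none 13331 (32.5%). Taking the brightest probe of each of 15259 named genes, 8394 genes were above background in every pup, the background share of 55.0% against which the lists below are read. A few probes held most of the signal: the brightest 1% of probes took 58.7% to 65.6% of the net Cy5 of an array.

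The top of the scale was protein synthesis, haemoglobin, mitochondrial transcripts and the cytoskeleton. Named genes were ranked without mitochondrial genes and provisional names. Of the 20 with the highest median rank, 16 encode cytosolic ribosomal proteins, led by Rps23, Rplp1, Rps6, Rps16 and Rpl23. The others were the alpha-globin gene Hba-a3, the beta-globin gene Hbb-b1, the growth-related translationally controlled protein gene Tpt1, and Actb, which encodes beta-actin. Of the genes left out, the mitochondrial COX2 had a median rank of 99.977, just above Rpl23 at 99.976. Rps23 had net Cy5 intensities of 292043 to 458674 with a median of 359677, and Hba-a3 292114 to 656634 with a median of 501139. At most 1 probe per array was saturated, on 3 of the 12 arrays. Among the 100 brightest probes, 64 were described as ribosomal proteins, 10 lie on the mitochondrial genome and 2 are globin probes. The 130 ribosomal protein probes together took 17.7% to 21.6% of the net signal, the 49 mitochondrial probes 3.83% to 5.64%, and the 8 globin probes 0.718% (male 2) to 2.05% (female 4). Ribosomal protein and mitochondrial shares moved little between pups, while the highest globin share was well above the lowest.

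The label of the sample was checked against marker genes of mononuclear and other blood cells, all shown in the plot of list levels. The lists were written from textbook knowledge.

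**Figure D1:**
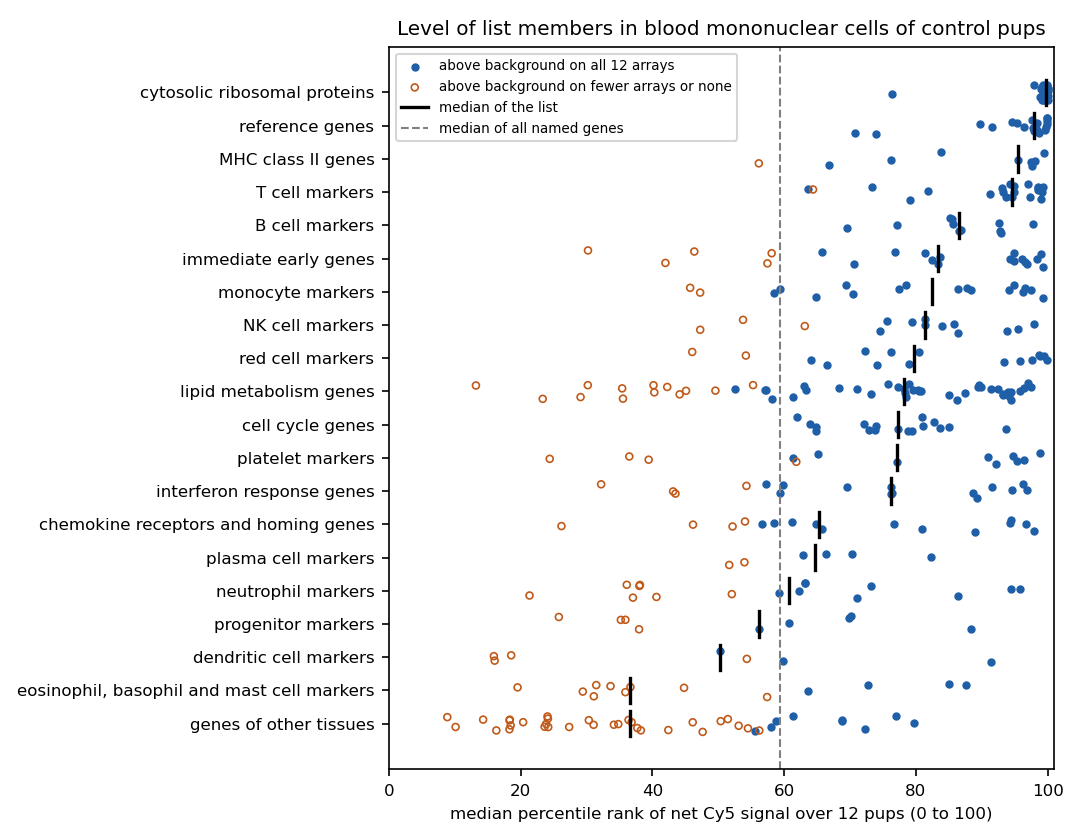
Median percentile rank of net Cy5 over the 12 control pups (x axis, 0 to 100) for every measured member of 20 gene lists (y axis). Each filled point is a gene above background on all 12 arrays, each open point one that was not, black bars are list medians and the dashed line is the median of all named genes, 59.3. Ribosomal, reference, MHC class II and T cell lists lie at the right end, and genes of other tissues at the left.

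T cell genes had the highest median rank of the lymphocyte and monocyte lists. Of 21 measured T cell markers, 20 were above background in every pup, and the list's median rank was 94.5, against 59.3 for all named genes. Cd3d, a chain of the receptor complex that T cells use to signal antigen recognition, had net Cy5 intensities of 24247 to 41004 (median 32514), and Cd3g, another chain, 19758 to 31158 (median 28361). No pup stood apart for either gene, and their log2 ratios had SDs of 0.13 and 0.09 (n = 12). Cd6, a T cell surface receptor, ran from 10156 to 28154. The costimulatory receptor gene Cd28 was the 1 member that missed background, on 1 array. The largest T cell spread was that of Tcf7, a transcription factor of naive T cells, with an SD of 0.50 and a 3.04-fold range.

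All 11 measured B cell markers were above background in every pup, with a median rank of 86.5. Cd79b, a signalling chain of the B cell receptor, had net Cy5 intensities of 5289 to 14814 (median 7696). Ebf1, a transcription factor of B cell identity, ranged from 928 to 3323 (median 1640). Vpreb3, expressed by immature B cells, ranged from 574 in its dimmest pup to 4114 (median 1603) and had the largest spread of the list, an SD of 0.62. B cell genes were highest in female 6 and male 4, where the list's mean log2 ratio was 0.76 and 0.69, and lowest in male 5 and female 3, both at -0.12. Plasma cell genes were lower on the scale: 4 of 6 were above background in every pup, led by Mzb1 at a median rank of 82.3, while Jchain, the joining chain of secreted IgM and IgA, was at 70.2.

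Of 14 NK and cytotoxic markers, 11 were above background in every pup, at a median rank of 81.4. The chemokine gene Ccl5 had net Cy5 intensities of 2207 to 11963 (median 8339), the pore-forming Prf1 2121 to 4068, and the granule gene Nkg7 649 to 2735. Male 4 had the lowest log2 ratio for all 3 genes, at -1.18, -0.17 and -0.59. Gzma, a granule protease, had the largest spread (SD 0.54) and was lowest in male 3 at -1.48.

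Of 18 monocyte markers, 16 were above background in every pup, at a median rank of 82.4. Lyz2, the lysozyme of phagocytes, had net Cy5 intensities of 19336 to 60366 (median 39198), the lectin gene Fcnb 2349 to 11155 and the lysosomal protease gene Ctss 3134 to 5371. Cd14, the coreceptor for bacterial lipopolysaccharide, had the largest spread (SD 0.53) and was highest in female 3. Antigen presentation genes stood near the top: of 9 MHC class II genes 8 were above background in every pup at a median rank of 95.5, and Cd74, the invariant chain that escorts class II molecules, had net Cy5 intensities of 31860 to 68987. Dendritic cell genes were sparse. Only 3 of 7 were above background in every pup, Tcf4 leading at a rank of 91.4, and Cd209a and Zbtb46 were well above background on no array.

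Markers of neutrophils, and of eosinophils, basophils and mast cells, were above background about as often as all genes, or less often. Of 16 neutrophil genes 9 were above background in every pup, a share of 56.3% beside 55.0% for all genes. The calprotectin genes S100a9 and S100a8 were high, at median ranks of 95.7 and 94.4, whereas Cxcr2, the neutrophil chemokine receptor, was above background on no array, and Ltf and Mmp8, of neutrophil granules, on 1 array each. Of 13 eosinophil, basophil and mast cell genes 4 were above background in every pup, a share of 30.8% beside the same 55.0%. The median rank of that list was 36.6, as for the genes of other tissues below. Prg2, a major eosinophil granule protein gene, and Mcpt8, a basophil protease gene, were highest in male 6, at log2 ratios of 1.42 and 1.46, while Fcer1a, Ms4a2, Cpa3, Ccr3 and Prss34 were above background on no array. Their part in the levels of shared genes was not tested.

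Red cells should also be left behind by a density gradient, but their genes were above background more often than all genes. Of 16 red cell genes 14 were above background in every pup, a share of 87.5% beside 55.0% for all genes. Their median rank was 79.7, with Hbb-b1 and Hbb above a rank of 99. Of 13 platelet genes 9 were, with the platelet chemokine gene Pf4 at a median rank of 98.9, and Selp was above background on no array. Of 9 progenitor genes 5 were above background in every pup. Gfi1b, a factor of red cell and platelet precursors, led at a rank of 88.3, the lymphoid recombination genes Rag2 and Dntt were at 70.1 and 69.8, and the stem cell genes Cd34 and Hoxa9 were above background on no array. All 17 cell cycle genes were above background in every pup, at a median rank of 77.3, led by the replication clamp gene Pcna at 93.7.

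Of 21 immediate early genes, which respond rapidly to stimuli, 16 were above background in every pup at a median rank of 83.4, with the AP-1 subunit gene Jund at a median rank of 99.2 and Klf6 and Btg2 next. Of 16 chemokine receptor and homing genes 12 were, at a median rank of 65.3 and with 4 over 90, among them Cxcr4, the receptor that holds cells in marrow, at 97.9 and the gut-homing integrin chain gene Itgb7 at 96.7, while S1pr1 was above background on no array. Of 17 interferon response genes 13 were, with Rsad2 and Ifi27 at 96.8 and 96.2. Of 51 lipid metabolism genes 38 were, a share of 74.5%. The mitochondrial carrier gene Ucp2 (2886 to 9761), Acly, which makes cytosolic acetyl-CoA (4374 to 6002), and the cholesterol exporter gene Abcg1 (3230 to 4774) led that list in net Cy5 rank. Ppara, Vldlr, Fads2 and Lepr were above background on no array, Lpl on 1 and Pparg on 2.

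Genes of other tissues gave the floor of the scale. Of 40 such genes 9 were above background in every pup, 13 on none, and the median rank was 36.6. Tnni2, a skeletal muscle troponin gene, Cela1, a pancreatic elastase gene, and Pomc, a pituitary hormone gene, stood highest at ranks of 79.7, 76.9 and 72.3. Of 1103 olfactory receptor genes 77 were above background on all 12 arrays and 775 on none.

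The pups differed little in most genes. Over the 8386 genes above background on all 12 arrays and with a ratio on at least 10, the median SD was 0.14. The same pool in the Cy3 channel gave a partial technical yardstick. It does not carry the amplification and labelling of each pup's own RNA, and it was quantile normalized where the ratio used loess. Differences between pups and technical spread on the pup side were not separated. Over 18828 probes the median SD of the log2 ratio was 0.14, that of the Cy5 channel alone 0.18, and that of the pool in Cy3 0.07. An SD over 0.5 was found for 194 genes (2.31%) and one over 1 for 28 (0.334%). Among probes, 379 (2.01%) had a log2 ratio SD over 0.5, and 53 (0.281%) had a Cy3 pool SD that large. The count of genes with an SD over 0.5 was 293 with median centring in place of loess, 319 with Cy5 alone and 961 with the scanner's own log ratio.

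**Figure D2:**
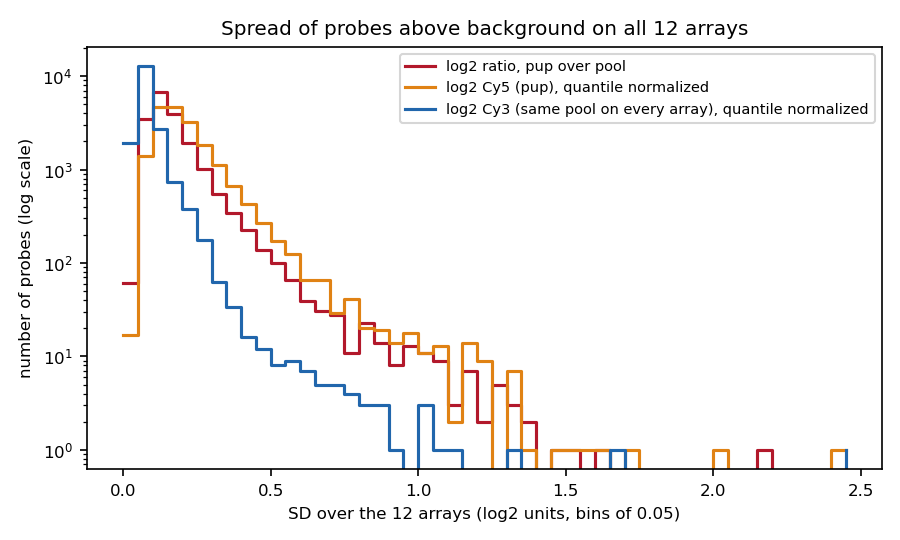
Number of probes (y axis, log scale) by SD over the 12 arrays (x axis, log2 units) for probes above background on all 12 arrays, with the last bin holding all larger values. The pool in Cy3 has a median SD of 0.07, the pup-to-pool ratio 0.14 and Cy5 alone 0.18, and 53 probes of the pool exceed 0.5 against 379 of the ratio.

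Ribosomal protein genes spread like the median gene. The 48 ribosomal protein genes with a spread had a median SD of 0.14, none over 0.5, and their mean log2 ratio stayed between -0.08 and 0.06 in all 12 pups. The 19 reference genes had a median SD of 0.18, above the 0.14 of all genes, with 1 over 0.5. The steadiest were Sdha (SD 0.07), Hprt1 (0.10), Ppia (0.13), Tbp (0.13) and Gusb (0.14). The mean of 38 lipid metabolism genes stayed between -0.03 and 0.13. Within it Cd36, a fatty acid and platelet surface receptor gene, spread most, with an SD of 0.66.

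Red cell genes had the largest median SD of the lists over the 12 pups. These genes serve haemoglobin synthesis and the red cell membrane, and their RNA is lost as reticulocytes mature. Of 14 with a spread, 12 had an SD over 0.5 and 6 over 1, and the list's median SD was 0.99 against 0.14 for all genes. Alas2, the first and rate-limiting enzyme gene of haem synthesis in red cells, had net Cy5 intensities of 6377, 5677, 10328 and 10782 in male 2, male 5, male 1 and female 1, between 15212 and 36990 in 7 pups, and 65139 in female 4. These 4 pups were the lowest of the 12, and the log2 ratio was -1.36 in female 1 and -0.51 in male 4, the next pup. Hbb, a beta-globin gene, ran from 13809 (male 5) to 145994 (female 4), with a median of 42073. Ahsp, the chaperone gene of free alpha-globin, had log2 ratios from -2.87 (male 2) to 1.07 (female 4), a 15.4-fold range. Slc4a1, the band 3 anion exchanger gene of the red cell membrane, spanned 16.2-fold, and Car2, the carbonic anhydrase gene, 13.5-fold. The Hba-a3 ratio spanned 12.2-fold, but its pool signal in Cy3 had an SD of 0.60, the largest of the 25 most variable genes, and its net Cy5 only ran from 292114 to 656634, a narrower range than its ratio. Outlying spots removed the ratio of Hba-a3 and Hbb in male 3 and female 2.

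The mean log2 ratio of the 14 red cell genes was -1.72 in male 2, -1.59 in male 5, -1.39 in male 1 and -1.38 in female 1. The other 8 pups ran from -0.60 (female 5) to 1.01 (female 4). The full range was 6.64-fold, and 3.05-fold among those 8 pups, where the platelet mean described below ranged 3.34-fold.

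**Figure D3:**
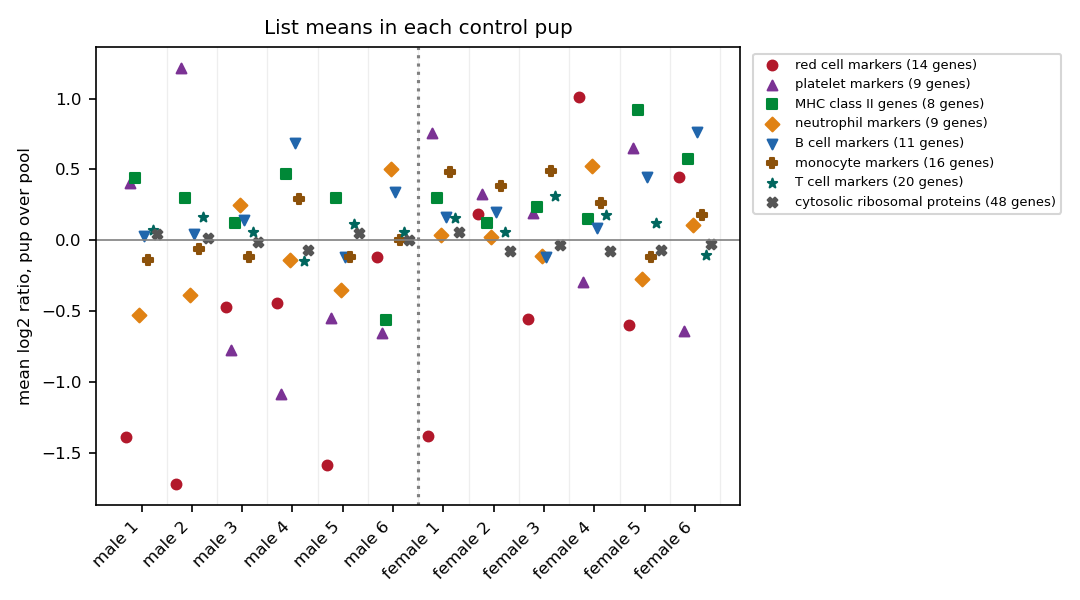
Mean log2 ratio of pup to pool (y axis) of 8 gene lists in each of the 12 control pups (x axis, males left of the dotted line), 1 symbol per list. Red cell means run from -1.72 in male 2 to 1.01 in female 4 and platelet means from -1.09 in male 4 to 1.22 in male 2, while ribosomal protein means stay between -0.08 and 0.06.

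Among the 25 most variable genes, 17 followed the red cell list, with a Pearson r over 0.9 to its mean over the 12 pups, and 12 of them are not on it. Over all genes 125 did (1.49%), and of the 194 genes with an SD over 0.5, 68 did. The 12 count the alpha-globin gene Hba-a3, because the list held alpha-globin under other symbols. The r values describe these pups, which share the pool, and with 4 pups set apart they were also computed in the other 8, where 16 of the 17 stayed over 0.9. The genes outside the list included Fech, which inserts iron into haem (r = 0.99), Rhd, a red cell blood group antigen gene (0.99), Add2, a membrane skeleton adducin gene (0.97), Alox15, a lipoxygenase gene of reticulocytes (0.98), Lgals5, a rat galectin gene (0.98), Gch1, the first enzyme gene of tetrahydrobiopterin synthesis (0.98), and Nrtn, a neurotrophic factor gene (0.97). Rsad2 and Ifit1, textbook interferon-induced antiviral genes, were among them as well. Rsad2 net Cy5 was 827 to 1967 in male 5, male 2, female 1 and male 1, 3660 to 10071 in 7 pups and 21604 in female 4, and its r to the red cell mean was 0.99 (0.97 in the other 8 pups). A second Rsad2 probe ran the same way, from a log2 ratio of -1.40 in male 2 to 0.68 in female 4. Ifit1 had an r of 0.94, and 0.84 in the other 8 pups. The remaining interferon genes with a spread did not share this range: of 13 only these 2 had an SD over 0.5, and the list's median SD was 0.20.

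The bases upstream of 4 of these genes are shown because their log2 ratios followed the red cell mean across the pups while their roles differ. They are RefSeq promoter entries of build GRCr8, the 250 bases before the annotated start on the gene's strand, while probe positions elsewhere are of build rn4. Capitals mark AGATAA or its reverse TTATCT (the GATA motif), CCACACCC or its reverse GGGTGTGG (a CACCC box), and GAAA, any 2 bases and GAAA, or its reverse TTTC, any 2 bases and TTTC (the core of the interferon-stimulated response element), searched on both strands, and no marked sites overlap. Alas2 is at chrX:22895200-22895449 (+), Rhd at chr5:152370950-152371199 (+), Add2 at chr4:120054628-120054877 (+) and Rsad2 at chr6:48788121-48788370 (-).
Alas2: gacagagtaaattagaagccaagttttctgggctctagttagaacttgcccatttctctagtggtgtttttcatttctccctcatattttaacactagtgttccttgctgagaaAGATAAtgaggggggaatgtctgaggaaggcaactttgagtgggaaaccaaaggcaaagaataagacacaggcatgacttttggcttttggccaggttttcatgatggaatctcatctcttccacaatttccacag
Rhd: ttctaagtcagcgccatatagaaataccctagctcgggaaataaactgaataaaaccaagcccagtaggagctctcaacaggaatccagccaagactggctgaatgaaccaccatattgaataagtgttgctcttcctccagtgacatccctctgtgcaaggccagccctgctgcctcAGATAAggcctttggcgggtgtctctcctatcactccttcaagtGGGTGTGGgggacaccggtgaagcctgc
Add2: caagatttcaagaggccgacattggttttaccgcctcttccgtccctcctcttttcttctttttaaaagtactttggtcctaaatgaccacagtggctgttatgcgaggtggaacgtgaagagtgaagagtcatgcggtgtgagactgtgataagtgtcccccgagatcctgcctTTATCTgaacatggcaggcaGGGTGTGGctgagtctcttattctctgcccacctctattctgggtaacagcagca
Rsad2: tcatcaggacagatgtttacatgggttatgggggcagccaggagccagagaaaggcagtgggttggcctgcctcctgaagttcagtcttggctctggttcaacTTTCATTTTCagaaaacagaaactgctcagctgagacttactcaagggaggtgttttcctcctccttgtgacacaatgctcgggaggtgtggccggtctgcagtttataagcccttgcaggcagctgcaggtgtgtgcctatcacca

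Of the 25 most variable genes and Alas2, 19 have such an entry, and 9 of the 19 hold the GATA motif, which 10.3% of all 33469 entries hold. The CACCC box is in 3 of the 19 (2.84% of all entries) and the interferon core in 2, Rsad2 and Lgals5 (3.41% of all entries). In Alas2 the GATA motif begins 136 bases before the start, in Add2 75 and in Rhd 72, and the CACCC box begins 55 bases before the start in Add2 and 28 in Rhd. The interferon core of Rsad2 begins 147 bases before the start. Guca2a, which did not follow the red cell mean (r = -0.71), is 1 of the 9 with the GATA motif. Each gene shown above holds a marked motif, but not every gene that followed the red cell mean does. Hbb-b1, Hba-a3 and Ybx3 (r = 0.97, 0.97 and 0.99) hold none of the 3 motifs, and Hbb (r = 0.99) holds the CACCC box alone. A match describes letters and not a bound site.

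Platelet genes formed another axis. Pf4 had net Cy5 intensities of 5475 (male 4) to 66646 (male 2), with a median of 20917 and an SD of the log2 ratio of 1.06. Gp1bb, a chain of the von Willebrand factor receptor, spanned 9.30-fold and Treml1, a platelet granule receptor gene, 11.5-fold, both lowest in male 4 and highest in male 2. The mean of the 9 platelet genes with a spread ran from -1.09 in male 4 to 1.22 in male 2, a 4.94-fold range, and 4 of the 9 had an SD over 1. The order of pups was not that of the red cell genes: male 2 was lowest for red cells and highest for platelets, and male 5 was low for both, at -0.55 for platelets. Over all genes 47 (0.560%) followed the platelet mean with an r over 0.9, and outside the list they included Ptgs1, the cyclooxygenase gene that platelets use to make thromboxane, the clotting factor gene F5 and the ADP receptor gene P2ry12.

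Several genes of the intestinal lining were highest in the same 4 pups that were lowest for red cell genes. The gene of largest spread was Fabp6, the bile acid binding protein of the ileum, with an SD of 2.15. Its net Cy5 was 6546 in male 1, 6272 in female 1, 2333 in male 5 and 787 in male 2, and 24.7 to 76.1 in the other 8 pups. The log2 ratio of Fabp6 was 0.03 in male 2 and -1.38 in female 2, the highest of those 8. Guca2a, which encodes the gut peptide guanylin, ran in the same order at the top, 2508 in male 1, 2084 in female 1, 862 in male 5 and 318 in male 2, against 68.8 to 159 in the others. A list of 25 intestinal epithelium genes was then written, after these values were seen. In male 1 19 of them were above background, in female 1 and male 5 17 each, in male 2 16, and in the other pups 3 to 10. Reg3b, an antimicrobial lectin gene of the gut, had net Cy5 of 6334, 3585, 1355 and 1069 in male 1, female 1, male 5 and male 2, and 24.8 to 58.0 elsewhere. Krt20, a keratin gene of mature gut epithelium, was at 1396, 1445, 606 and 191 in male 1, female 1, male 5 and male 2, and at 17.9 to 55.3 elsewhere. Of the 25, 12 had an SD over 0.5, but only 3, Fabp6, Guca2a and Apoa4, were above background in all 12 pups and entered the count of spread. The mean log2 ratio of those 12 genes was 1.69 in male 1, 1.28 in female 1, 0.58 in male 5 and -0.18 in male 2. In the other pups it ran from -1.57 to -0.67. Not every gene split in this way. Apoa4 net Cy5 was 89.9 in female 4 and 76.6 in male 2, and Apoa1 150 in female 3 and 113 in male 2. Muc2, Olfm4, Alpi, Si and Lct, defining genes of goblet, stem and brush border cells, were above background on no array. Tff3, also a goblet cell gene, did split in net Cy5. It was at 840.7, 924.3, 314.2 and 122.6 in male 1, female 1, male 5 and male 2, and at 20.8 to 63.5 elsewhere. The log2 ratio of Tff3 was -0.45 in both male 2 and female 2. Male 1, male 2 and female 1 share a slide and male 5 is on another. The part of these genes in the red cell, platelet or sex results was not tested. Without the 4 pups, 154 genes had an SD over 0.5.

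**Figure D4:**
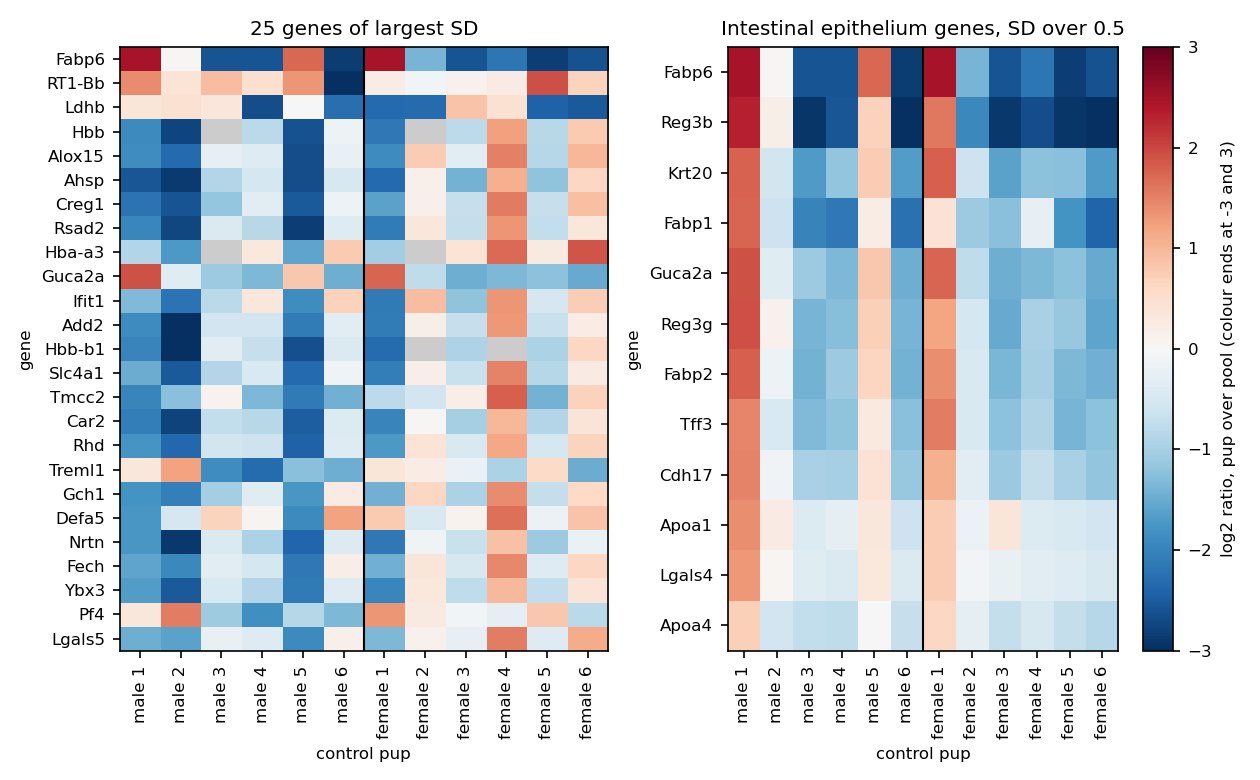
Log2 ratio of pup to pool in the 12 control pups (columns, males left of the line) for the 25 genes of largest SD (left, rows ordered by SD) and for the 12 intestinal epithelium genes with an SD over 0.5 (right). Red is above the pool, blue below, grey a ratio lost to an outlying spot, and the scale ends at -3 and 3. Red cell genes are lowest, and Fabp6 and Guca2a highest, in male 1, male 2, male 5 and female 1.

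A few genes sat at separate levels. Among 8386 genes, 10 (0.119%) had a gap of more than 1 on the log2 scale between neighbouring pups with at least 3 pups on each side, and 5 of these, Rsad2, Rhd, Hba-a3, Hbb and Hbb-b1, had the gap above male 1, male 2, male 5 and female 1. Fabp6 and Guca2a had theirs below male 1, male 5 and female 1. Ldhb, the heart-type subunit gene of lactate dehydrogenase, had net Cy5 of 3241 to 5486 in male 1, male 2, male 3, male 5, female 3 and female 4, and 370 to 571 in the other 6 pups. Its gap was 2.28 on the log2 scale, and Ldha, the muscle-type subunit gene, had an SD of 0.15. The array holds 1 named Ldhb probe. Rab5c, a gene of early endosome transport, was high in female 1, female 3 and female 6, at 6018 to 6963 against 703 to 2024 in the others, and its 2 further probes had their highest log2 ratios in the same 3 pups, 0.79 to 0.97 and 1.18 to 1.26. In those 3 females a probe of Hnrnpa2b1, an RNA-binding protein gene, was low, at 476 to 825 against 1398 to 2442, while its other probe stayed between -0.19 and 0.22 on the log2 ratio scale in all 12 pups. RT1-Bb, a beta chain gene of rat MHC class II, was lowest in male 6: net Cy5 was 162 there and 4501 to 23115 in the other 11 pups, an 85.1-fold range of the ratio. A second RT1-Bb probe gave 3214 in male 6, within its range of 1404 to 3441, so the probes of this gene disagree.

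Other lists spread less. The MHC class II mean ran from -0.56 in male 6 to 0.92 in female 5, a range that includes the RT1-Bb probe. Neutrophil genes ran from -0.53 in male 1 to 0.52 in female 4, and 5 of 9 had an SD over 0.5, S100a9 and S100a8 among them at 0.57 and 0.56. Among the immediate early genes, Ier2 reached 12234 in its brightest pup, with a log2 ratio of 1.98 in female 1, and had an SD of 0.73. T cell, monocyte and NK means ranged from -0.15 to 0.31, from -0.14 to 0.49 and from -0.57 to 0.20. Defa5, an alpha-defensin gene, had log2 ratios from -1.92 in male 5 to 1.66 in female 4. Just inside the 25 genes of largest SD was Lgals5 (1.06) and just outside were Alas2 (1.05), Gp1bb (1.04) and Clec1b (1.02).

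Few probes differed between the sexes. In limma's test of male minus female, 7 of 20480 features (0.0342%) had a Benjamini-Hochberg adjusted p under 0.05, of which 3 had more signal in males (0.0146%) while 4 had more in females (0.0195%), and none carries a gene name here. The 4 female-high probes lie side by side at chrX:91447528-91449856 of rn4, and the file describes A_44_P324932, at chrX:91449797-91449856, as similar to the X inactive specific transcript, the RNA that silences the second X chromosome in females. Probe A_44_P597131, at chrX:91447528-91447587, had net Cy5 of 2404 to 5580 in females and 19.3 to 59.0 in males, where 3 of 6 arrays were above background. The difference of its log2 ratio, male minus female, was -4.89 ± 0.17 (SE, limma adjusted p = 2.6e-09). A_44_P324932 was above background in 1 of 6 males and A_44_P588551 in 2, so the sizes of their differences, and that of A_44_P597131, rest on signals near background and ran to -7.36, -6.10 and -7.09 with the scanner's own log ratio. A_44_P324932 differed by -3.34 ± 0.16 (limma adjusted p = 5.18e-08) and A_44_P588551, at chrX:91448492-91448551, by -2.97 ± 0.13 (limma adjusted p = 4.37e-08). A_44_P345194, at chrX:91448922-91448981, was above background in no male, with net Cy5 of 65.8 to 122 in females and 7.75 to 27.6 in males (limma adjusted p = 0.00203), and no fold is given.

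The 3 male-high probes have no position in the file. A_44_P638995, described as similar to mouse eIF2 gamma, a subunit of the factor that brings the initiator tRNA to the ribosome, had net Cy5 of 340 to 502 in males and 5.84 to 16.3 in females, where no array was above background. It was higher in males (limma adjusted p = 0.000158), and no fold is given. A_43_P19826 was also above background in no female, and was higher in males (limma adjusted p = 0.016), with net Cy5 of 117 to 242 in males and 6.63 to 18.4 in females. A_44_P671422 was above background in both sexes, at 248 to 468 in males and 59.1 to 114 in females, a difference of 1.18 ± 0.12 (limma adjusted p = 0.000422). For each of the 7 probes the sexes did not overlap, which held for 73 of 20208 features with a ratio on every array (0.361%), and the exact permutation p of 6 against 6 pups, two-sided, was 0.00216, the smallest that the design allows. The 7 probes were picked by limma on these same ratios, so this is no separate support. Except for A_44_P597131 and A_44_P671422, they entered the test only through the sex with more signal. A_43_P19826 lost its call in 5 of the 12 fits that left out 1 pup, those without male 1, male 3, female 3, female 5 or female 6, with limma adjusted p of 0.0547 to 0.0698. Without male 1, male 2, male 5 and female 1, the 4 pups highest in intestinal genes, 3 of the 7 probes kept their call, all with more signal in females. The limma adjusted p was then 0.065 for A_44_P638995, 0.108 for A_44_P671422, 0.497 for A_43_P19826 and 0.46 for A_44_P345194.

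**Figure D5:**
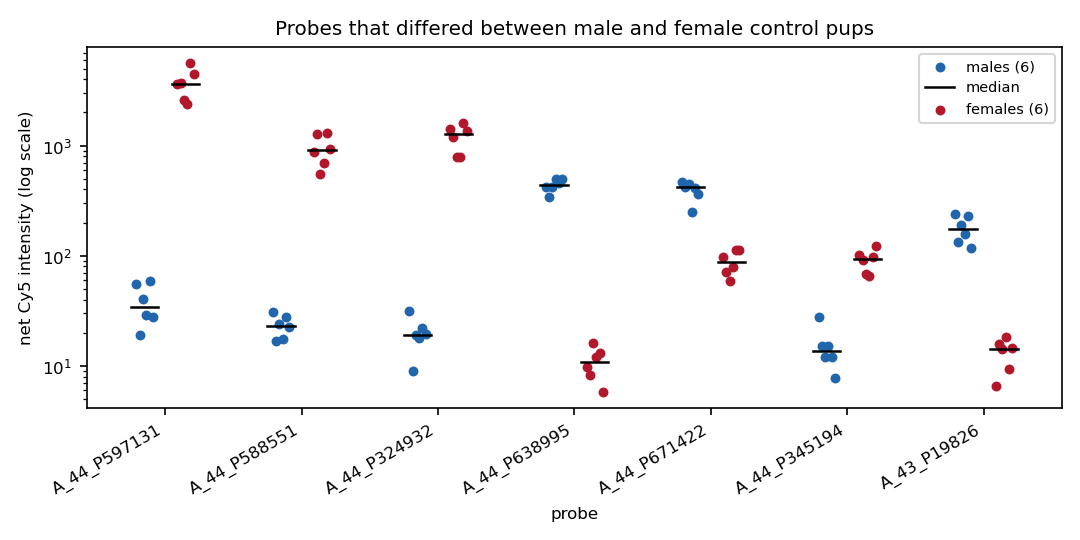
Net Cy5 intensity (y axis, log scale) of the 7 probes that passed the test between sexes (x axis, ordered by p), with 1 point per control pup and a bar at the median of each sex. Males and females do not overlap for any of the 7, and A_44_P597131 has the widest separation, 19.3 to 59.0 in males against 2404 to 5580 in females.

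No named gene passed the test. The nearest was Eif2s3, an X-linked gene for the gamma subunit of eIF2, with a mean log2 ratio of -0.34 ± 0.17 (SD, n = 6) in males and 0.16 ± 0.14 in females, a difference of -0.51 ± 0.08 (SE, limma adjusted p = 0.096). With the restricted pups' arrays added to the fit, to estimate the spread from all 23 arrays, the limma adjusted p of the same difference was 0.00583. Of 8 measured sex-linked genes 7 were lower in males and 1 higher, beside 49.4% of all features that were lower in males. Usp9x was the exception, at 0.15 higher in males. Ddx3x, Eif1ax, Kdm5c, Uba1 and Pbdc1 had differences of -0.16, -0.23, -0.09, -0.21 and -0.31, and Zfx -0.01. Among autosomal genes the lowest p-values belonged to Slc11a1, a phagosome metal transporter gene, at -0.57, Tmbim6, an inhibitor gene of cell death, at -0.31, and Lmna, the lamin A/C gene, at -0.74, with limma adjusted p of 0.498, 0.498 and 0.50. None of these passed. Coro1b, Apol2, Nfe2 and Nprl3 had differences of -0.37, -0.21, -0.64 and -0.37, all at a limma adjusted p of 0.50. The lowest p-values with a positive difference were those of Lig4 (0.82), Ms4a6bl1 (0.34), Get4 (0.29), Anapc7 (0.27), Thap1 (0.25), Dpp4 (0.23), Il22ra2 (0.22) and Ybey (0.18), with limma adjusted p of 0.50 to 0.565.

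Whole lists leaned by sex without any member passing. All 16 measured red cell genes and all 11 platelet genes were lower in males, with median differences of -0.73 and -0.30, and all 18 monocyte genes were lower with a median of -0.26. The lean was not particular to these lists. Lower in males were also 10 of 11 neutrophil, 13 of 15 chemokine receptor and homing, 8 of 9 MHC class II and 14 of 19 reference genes. The other way went 32 of 52 ribosomal protein genes and 4 of 5 progenitor genes, which were higher in males. At an unadjusted p under 0.05, 7 of the red cell, 10 of the monocyte and 0 of the platelet genes were higher in females and none in males, beside 4.36% of all features that were higher in females and 4.40% in males. After limma's adjustment 0 of each list passed. The median of all features was 0.00. Of the 4 pups with the lowest red cell means, 3 are male. Without those 4 pups, all 16 red cell genes were still lower in the males left, with a median of -0.38, all 18 monocyte genes with a median of -0.16, and all 10 platelet genes still measured with a median of -0.75. The males left were only male 3, male 4 and male 6. The neutrophil list turned around, with 8 of 11 genes then higher in those males. Members of one list vary together and are not replicates, so these counts describe the 12 pups.

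The 12 arrays lie on 6 slides with at most 3 control pups each. With sex in the model, limma's F-test of slide called 13 of 20480 features (0.0635%). They include Zfp36l3, Myadm, Slc2a6, Ccr10, Col8a1 and the mitochondrial gene COX1, and the lowest limma adjusted p was 7.4e-05 for Zfp36l3. With the scanner's own log ratio 2 features were called, and with Cy5 alone 0, where 2096 had an unadjusted p under 0.05 and the smallest limma adjusted p was 0.11. Pups on 1 slide deviated from their sex means with a median correlation across features of 0.22 over 7 pairs, and pups on different slides with -0.14 over 59 pairs, with ranges of -0.15 to 0.46 and -0.65 to 0.49. Taking out sex means by itself pushes pups of the same sex towards negative correlations. Pairs on 1 slide were mostly a male with a female, while pairs on different slides were often of the same sex. The gap between the medians therefore does not measure slide alone. Slide 5 holds 1 control pup, female 5.

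Markers of different cell types were then set against each other across pups. The 10 anchor genes gave 45 pairs. By Pearson's r no pair passed a Benjamini-Hochberg adjusted permutation p of 0.05, and by Spearman's rho 1 did. Leaving out male 1, male 2, male 6, female 2, female 3, female 4 or female 5 in turn left 0 pairs by rho, so that the call was lost in 7 of 12 fits. That pair was Alas2 of red cells and S100a9 of myeloid cells, with a Pearson r of 0.81 (permutation p = 0.00158, adjusted 0.0711) and a rho of 0.87 (permutation p = 0.0005, adjusted 0.0225) over 12 pups. Without male 2 and female 4, the pups farthest from the median of Alas2, r was 0.68. Since 4 pups stand apart for Alas2, r was also taken in the other 8, where it was 0.69, and after slide means were taken out it was 0.74. Leaving out any 1 pup gave an r of 0.75 to 0.87. The next pairs were Cd79b of B cells with Cd74 of class II antigen presentation at r = 0.81 over 11 pups (permutation p = 0.00406, adjusted 0.0913), and Cd3e of T cells with Pf4 of platelets at r = 0.73 (permutation p = 0.00668, adjusted 0.10).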

How the data were processed

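Scanner text files of 23 arrays were used, 12 of them of control pups. Per the file headers they were made with Agilent Feature Extraction 10.5.1.1, which gives spot intensity in arbitrary linear units, background intensity, flags and a log10 ratio of Cy5 over Cy3. The deposited value table, on what appears to be a log2 scale, follows the log2 of the net Cy5 intensity with a Pearson r of 0.981 to 0.989 across 21620 probes. Its column median is 7.19, and its exact scaling is not given in the sources used here. Per the labels' protocols, RNA had a RIN above 8.0 and 40 ng was amplified, which can distort levels.

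Net Cy5 intensity is the mean signal minus the local background median. Log2 ratios came from normexp background correction (offset 50) and loess within arrays in limma 3.58.1 under R 4.3.3. Outlying spots were dropped, 153 to 427 per array, and the spots of a probe were averaged. A probe with 10 spots counted as above background when at least 0.5 of them were. Genes were named by accession, symbol or synonym in RefSeq (GRCr8), or by the file for 17 mitochondrial probes, 19542 of 41012 probes in all, and each gene is shown by its brightest probe. Spread needed a ratio on at least 10 arrays.

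The sex test was lmFit and eBayes on features above background on at least 0.5 of the arrays of either sex, with an adjusted p threshold of 0.05. On simulated ratios for this comparison with 20480 features it recovered 74 of 100 features shifted by 0.5 and 97 of 100 shifted by 1, with 9 false calls. The simulated noise was independent between features and pups. Real features vary together and pups share slides and litters, so these counts need not hold for the real test. Permutation p-values of correlations used 100000 resamples.

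Named genes were the 20 of highest rank, the 3 brightest and the most variable member of each list, the 25 of largest SD, the 5 steadiest reference genes, up to 8 genes per direction between sexes, and every sex-linked gene. The rankings of level, spread and sex left out mitochondrial genes and provisional names such as LOC or RGD. Ldhb, Rab5c, Hnrnpa2b1 and the intestinal genes were singled out after their values were seen. The members and lists were chosen with earlier results of these data known. Alternatives covered background, normalization, signal source, probe choice, filters, blocks and leaving out each pup. A few named genes are not reported here.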

Additional observations from a re-analysis of the deposited data

Results flagged for a closer look

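Among 114 sets of 6 pups of one sex, 7 had a pup far from the other 5. The 114 count a few sets of Hba-a3, Hbb and Hbb-b1 that lacked a ratio and could not be examined. Chance sets apart about 1 in 20, so the count of 7 is close to what chance alone would give. The sets are not independent, and Fabp6, Guca2a and RT1-Bb are among the genes of largest SD in these same pups. The flags below are therefore values to look at, and by themselves they do not show that a pup differs. In male 6 the RT1-Bb log2 ratio was -4.48, with the nearest male at 0.41. The mean of the MHC class II genes in male 6 was -0.56, with the nearest male at 0.12. That mean includes RT1-Bb, so it is not a separate flag. In female 5 the RT1-Bb log2 ratio was 1.93, with the nearest female at 0.66. Female 1 stood apart for the intestinal genes, with a Fabp6 log2 ratio of 2.48 beside -1.38 in the nearest female, and a Guca2a log2 ratio of 1.74 beside -0.75. Male 4 had the lowest T cell mean among males, -0.15 with the nearest at 0.06, and the highest monocyte mean, 0.29 with the nearest at 0.00045. Male 4 also had the fewest probes above background, 20603.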

How the results depend on the processing

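The count of 18850 probes above background was 23990 with the scanner's positive-and-significant flag and 22486 when 6 of 12 arrays sufficed. The 194 genes with an SD over 0.5 became 961 with the scanner's log ratio, 293 with median centring and 319 with Cy5 alone, and 181 to 205 when 1 pup was left out. The cause was not tested. Of the 25 genes of largest SD, 15 were shared with the scanner's log ratio and 10 without the 4 pups highest in intestinal genes, an alternative chosen after seeing the data. The sex test called 7 features, 6 to 8 when 1 pup was left out, and 3 without those 4 pups, where fewer samples remain. The replicate block gave 6 features, 5 of them among the 7, with A_44_P345194 and A_43_P19826 lost (limma adjusted p of 0.0907 and 0.176) and Lmna added. Same-numbered pups deviated from their sex means with correlations of -0.33 to 0.46, and the highest of them, 0.448 and 0.463, belong to numbers 1 and 6, whose pups also share a slide. The numbers were not taken as pairs. With slide as a block 7 were called, 6 shared. The slide test called 13 features, 2 with the scanner's log ratio and 0 with Cy5 alone. Anchor pairs past the threshold by Pearson's r were 0 in all and 0 to 2 when 1 pup was left out, and by rho 1 and 0 to 2. Of 357 list ranks recomputed, 30 moved by more than the spread between pups. The deposited table holds only 21620 probes. Dim probes, near a background of about 30 units, limit what can be said of genes at low rank.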
